A study of Mus musculus with 6 samples.

Results

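The 8 genes described here are Nkx6-1, Nkx6-2, Dbx1, Dbx2, Irx3, Sp8, Gsx1 and Gsx2, transcription factors that mark ventral and intermediate bands of neural progenitors. They were taken by symbol from the deposited count matrices, and 8 of 8 were present among the 17296 symbols that both matrices share (21910 symbols occur in either). In the developing spinal cord, a ventral source of Sonic hedgehog and dorsal sources of BMP and Wnt signals divide the dividing progenitors into bands, each with its own set of transcription factors. Many of these factors repress the factor of the neighbouring band, which sharpens the borders, and each band gives rise to its own kinds of neuron. Nkx6-1 and Nkx6-2 mark the ventral bands, Dbx1 and Dbx2 the bands at the middle of the dorsoventral axis, Irx3 a broad field dorsal to the motor neuron band, and Gsx1 and Gsx2 dorsal bands of the intermediate cord. Sp8 encodes a zinc finger protein, so the homeobox name does not apply to it, and the others encode homeodomain proteins.

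Expression was measured by droplet single-cell RNA sequencing of the 3′ ends of transcripts in neural tube organoids, hollow neuroepithelial structures grown in Matrigel from mouse embryonic stem cells. The groups were non-elongated organoids at day 6 (1 library), elongated organoids at day 6 (2 libraries, replicates 1 and 2, with batch labels 1 and 2), and elongated organoids at day 7, day 8 and day 10 (1 library each). All came from a single stem cell line that carries the reporters Sox1::eGFP and Bra::mCherry, and the medium of all held bFGF and activin-A up to day 3 and lacked both from then on. Organoids kept beyond day 6 were freed from the gel and embedded again singly, so the later days differ from day 6 in handling as well as in age, and the parts of each cannot be told apart. The labels give 100 organoids pooled per condition, so a library is a mean over organoids and no spread between organoids is known. The 6 libraries held 2076 to 3677 cells and 74072752 to 152742819 unique molecular identifiers (UMIs, each 1 captured transcript molecule). Any pair of libraries shared 1 to 4 cell barcodes. The duplicates at day 6 lie in different deposited tables with different class names, and replicate 2 was sequenced more deeply (median 59014 UMIs per cell) than replicate 1 (34854). Class names are the authors'. For the spinal cord class, the marker genes Hoxb6, Hoxb8, Hoxb9, Hoxc6 and Hoxa9 summed to 654 CPM (counts per 1e6 UMIs) in the non-elongated spinal cord class, and to 681 and 434 CPM in those of elongated replicates 1 and 2. In the spinal cord class of day 7 they summed to 229 CPM, with 1 of the 5 at 0 UMIs, of day 8 to 387 CPM and of day 10 to 296 CPM. The same 5 genes summed to 1.55 to 12.4 CPM in the mid/hindbrain class over days 6 to 10.

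The bases just before an annotated start of transcription are shown for the pairs Dbx1 with Dbx2 and Gsx1 with Gsx2, because the results below turn on when and where the partners of each pair were found together. Each is the 250 bases before a RefSeq start on the build GRCm38.p6, read 5′ to 3′ on the strand of the gene, and capitals mark TATAAA and CCAAT on either strand. Dbx1 lies on the minus strand at chr7:49636836-49637085, Dbx2 on the minus strand at chr15:95654772-95655021, Gsx1 on the plus strand at chr5:147188446-147188695 and Gsx2 on the plus strand at chr5:75075351-75075600.
Dbx1: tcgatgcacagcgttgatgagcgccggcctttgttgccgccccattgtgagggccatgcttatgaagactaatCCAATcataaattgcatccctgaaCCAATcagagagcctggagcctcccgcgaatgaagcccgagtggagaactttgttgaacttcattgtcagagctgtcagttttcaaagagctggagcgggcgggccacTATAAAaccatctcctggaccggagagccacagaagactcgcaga
Dbx2: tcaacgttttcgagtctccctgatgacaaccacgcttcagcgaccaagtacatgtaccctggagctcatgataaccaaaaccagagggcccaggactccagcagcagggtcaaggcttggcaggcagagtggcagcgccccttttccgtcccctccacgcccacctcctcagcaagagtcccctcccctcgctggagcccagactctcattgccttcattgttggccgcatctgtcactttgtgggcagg
Gsx1: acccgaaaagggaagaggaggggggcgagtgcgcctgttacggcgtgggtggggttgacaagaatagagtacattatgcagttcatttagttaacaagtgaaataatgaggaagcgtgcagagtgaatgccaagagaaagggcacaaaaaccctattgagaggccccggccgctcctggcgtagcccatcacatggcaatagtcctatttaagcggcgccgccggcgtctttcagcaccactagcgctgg
Gsx2: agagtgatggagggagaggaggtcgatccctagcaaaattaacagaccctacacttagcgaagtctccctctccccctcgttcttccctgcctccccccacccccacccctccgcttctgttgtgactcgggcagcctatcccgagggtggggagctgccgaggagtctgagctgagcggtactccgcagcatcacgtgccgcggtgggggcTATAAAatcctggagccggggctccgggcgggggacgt
Within each pair the members differed in these letters. Dbx1 holds TATAAA with its first base 45 bases before the start and 2 copies of CCAAT, and the Dbx2 window holds neither. That window lies inside the Dbx2 gene span given below (chromosome 15, 95623563 to 95655960, minus strand). The 2 annotations thus place the start of Dbx2 differently, and the contrast with Dbx1 holds for the RefSeq start alone. Gsx2 holds TATAAA with its first base 38 bases before the start, and Gsx1 holds neither. Of all 32851 RefSeq mouse promoter windows of 300 bases, 13.6% hold TATAAA and 37.4% hold CCAAT. The GLI site GACCACCCA, to which the hedgehog effectors bind, is in 0.253% of all windows and in none of the members' windows, and the homeodomain core TAATTA is in 5.29% of all windows and in 1 of the 3 windows listed for Sp8. The Nkx6-1 window was the richest in CpG, with 40, followed by Nkx6-2 and 1 of the Sp8 windows with 32 each, against 7 in the median window. A match, or its absence, says only which letters are in the window.

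**Figure D1:**
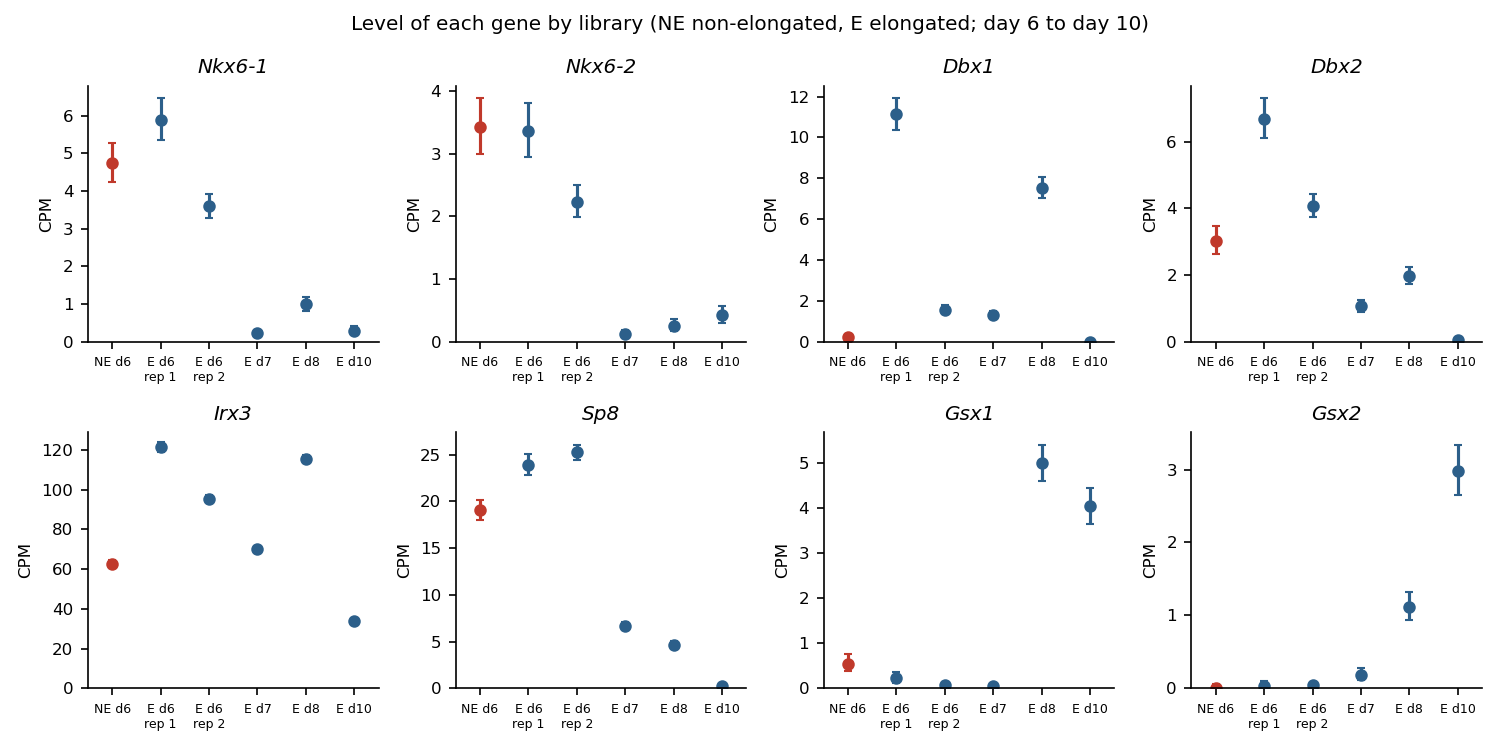
Level of each gene in each library, in CPM on a linear axis (TMM-scaled UMIs summed over all cells of a library); points are libraries, with the non-elongated library in red left of the elongated ones in blue, and bars are exact Poisson 95% intervals for counting error. Nkx6-1, Nkx6-2, Dbx2 and Sp8 lie highest at day 6, Gsx1 and Gsx2 are near 0 until day 8, and Dbx1 is far apart in the day 6 duplicates (11.1 and 1.56 CPM).

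Summed over all cells, the ventral and intermediate genes had fallen by day 10 and the Gsx genes had risen. At day 10, all 8 members passed the test against elongated day 6, 2 higher (Gsx1 and Gsx2) and 6 lower, in a comparison in which 26.4% of 16379 tested genes passed (14.1% higher and 12.3% lower). At day 7, 3 members were lower (Nkx6-1, Nkx6-2 and Sp8) and none higher, where 3.99% of genes passed (1.9% higher and 2.09% lower). At day 8, the same 3 genes were lower, and Gsx1 and Gsx2 were higher, where 13.4% of genes passed (6.74% higher and 6.64% lower). All comparisons of a later day share the same day 6 libraries, so their results are not independent. The test was edgeR's quasi-likelihood test with Benjamini-Hochberg adjustment over all tested genes, and its spread comes from the day 6 duplicates alone, so the single libraries are taken to be as variable as that pair. In these sums, fewer cells of a type and less RNA per cell cannot be told apart.

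Nkx6-1, which specifies motor neuron and neighbouring ventral progenitors (chromosome 5, 101658139 to 101664996, minus strand, GRCm38), measured 5.89 and 3.59 CPM in elongated replicates 1 and 2 at day 6, 0.229 CPM at day 7, 1.00 CPM at day 8 and 0.300 CPM at day 10. Every later library lay below both duplicates, and day 8 lay above days 7 and 10. The log2 change against day 6 was −4.36 ± 0.61 at day 7 (SE; adjusted p 0.0115), −2.24 ± 0.53 at day 8 (adjusted p 0.0325) and −3.97 ± 0.60 at day 10 (adjusted p 0.00363). Its paralogue Nkx6-2 (chromosome 7, 139579376 to 139582797, minus strand, within the span of Inpp5a on the other strand) measured 3.35 and 2.24 CPM at day 6, 0.118 CPM at day 7, 0.252 CPM at day 8 and 0.420 CPM at day 10. Here day 7 was the lowest and day 10 the highest of the later libraries, all of them below day 6. Its log2 change was −4.54 ± 0.66 at day 7 (adjusted p 0.0131), −3.46 ± 0.61 at day 8 (adjusted p 0.0114) and −2.73 ± 0.59 at day 10 (adjusted p 0.0142). The transcripts of the pair share no exact stretch longer than 17 bases.

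Dbx1, which defines the progenitors of V0 interneurons (chromosome 7, 49631499 to 49636849, minus strand), measured 11.1 and 1.56 CPM in elongated replicates 1 and 2 at day 6, 1.30 CPM at day 7, 7.55 CPM at day 8 and 0 UMIs at day 10. The duplicates were 7.12-fold apart, the widest gap among the members, with day 7 just below that gap and day 8 within it, and no change was called on either day (adjusted p 0.313 at day 7 and 0.883 at day 8). At day 10, 0 of 89832377 UMIs were Dbx1 (upper 95% limit 0.0369 CPM), and the fall against day 6 was called (adjusted p 0.00782). A floor of 3 UMIs, 0.0300 CPM, lies 211-fold below the mean of the duplicates, 6.35 CPM, which joins 11.1 and 1.56 CPM. Dbx2, whose band extends on both sides of that of Dbx1 (chromosome 15, 95623563 to 95655960, minus strand), measured 6.68 and 4.07 CPM at day 6, 1.07 CPM at day 7, 1.98 CPM at day 8 and 0.05 CPM at day 10. It lay below both duplicates on every later day, and passed the test only at day 10 (log2 change −6.71 ± 0.73, adjusted p 0.00091). At day 7 its change of −2.33 ± 0.53 missed the threshold (adjusted p 0.057) and passed it with median-of-ratios scaling (adjusted p 0.034) and with DESeq2 (adjusted p 0.0123).

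Irx3, an Iroquois factor that represses the motor neuron programme (chromosome 8, 91798525 to 91802067, minus strand), was the broadest of the 8, with UMIs in 1542 of 3677 cells at day 10 and in 2297 of 2402 cells of elongated replicate 2. It measured 122 and 95.5 CPM at day 6, 70.3 CPM at day 7, 115 CPM at day 8 and 33.9 CPM at day 10. Only day 10 passed the test (log2 change −1.68 ± 0.30, adjusted p 0.00723), with day 8 between the duplicates. The antisense gene Irx3os overlaps it and measured 0.670 to 1.97 CPM. Whether the counting used strand is not given in the sources used here, so reads of the overlap cannot be assigned with certainty. Sp8, known for roles in limb outgrowth and in patterning of the brain and cord (chromosome 12, 118846329 to 118852576, plus strand), measured 23.9 and 25.2 CPM at day 6, 6.68 CPM at day 7, 4.62 CPM at day 8 and 0.270 CPM at day 10. It fell on each later day (log2 change −1.88 ± 0.35, −2.41 ± 0.36 and −6.50 ± 0.47, with adjusted p 0.0304, 0.00572 and 0.000208). Within the midbrain and hindbrain classes alone, its day 7 change of −1.58 did not pass (adjusted p 0.0992).

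Gsx1 and Gsx2, which act in dorsal progenitors of the cord, moved the other way. Gsx1 (chromosome 5, 147188696 to 147190947, plus strand) measured 0.219 and 0.078 CPM at day 6, 0.052 CPM at day 7, 4.99 CPM at day 8 and 4.04 CPM at day 10. Gsx2 (chromosome 5, 75075601 to 75077893, plus strand) measured 0.027 and 0.042 CPM at day 6 (2 and 6 UMIs), 0.185 CPM at day 7, 1.12 CPM at day 8 and 2.98 CPM at day 10. Gsx1 thus stood at its height by day 8, whereas Gsx2 was 2.67-fold higher at day 10 than at day 8. Against day 6 the log2 changes were 5.14 ± 0.64 and 4.84 ± 0.64 for Gsx1 at days 8 and 10 (adjusted p 0.00292 and 0.00201), and 4.89 ± 0.64 and 6.31 ± 0.65 for Gsx2 (adjusted p 0.00361 and 0.000755). Their transcripts share no exact stretch longer than 23 bases. In a straight line over day across the 5 elongated libraries, 23.8% of 15775 genes passed (11.3% higher and 12.5% lower), and of the members Gsx2 rose by 1.63 ± 0.26 log2 units a day (adjusted p 0.0138), while Dbx2 fell by 1.36 ± 0.35 and Sp8 fell by 1.53 ± 0.15 (adjusted p 0.0418 and 0.00785). Without elongated day 6 replicate 2 this fit called none of the members and 0 of all genes (4852 at an unadjusted p under 0.05). Without replicate 1 it called Gsx2 and Sp8, where 11.1% of 15486 genes passed (5.27% higher and 5.86% lower).

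At day 6, non-elongated organoids were set against elongated ones to ask what accompanies elongation. Over all cells no gene passed (0% of 16379; 1137 at an unadjusted p under 0.05, and 127 by DESeq2), and no member passed. Non-elongated organoids held 0.231 CPM of Dbx1 (16 UMIs), against 11.1 and 1.56 CPM in elongated replicates 1 and 2. Its log2 change was −4.77 ± 1.25 (adjusted p 0.403, and 0.000277 by DESeq2, which called no other member). For Dbx2 the non-elongated value was 3.03 CPM, against 6.68 and 4.07 CPM, and for Irx3 it was 62.6 CPM, against 122 and 95.5 CPM, the lowest of the day 6 libraries for each of these genes. Sp8 likewise measured 19.1 CPM against 23.9 and 25.2 CPM. Nkx6-1 measured 4.74 CPM against 5.89 and 3.59 CPM, between the duplicates, and Nkx6-2 3.42 CPM against 3.35 and 2.24 CPM. Gsx1 measured 0.549 CPM against 0.219 and 0.078 CPM, and Gsx2 had 0 UMIs against 2 and 6.

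Within the deposited spinal cord class the Dbx genes stood apart. Dbx1 had 3 UMIs in 177 cells of the non-elongated library (0.546 CPM), against 698 UMIs in 507 cells of elongated replicate 1 (41.0 CPM) and 148 UMIs in 131 cells of replicate 2 (19.7 CPM). Dbx2 measured 2.36 CPM against 18.6 and 13.2 CPM. Both genes were thus far lower in the non-elongated class than in either duplicate. When the sums of this class alone were tested, 0.78% of 12176 genes passed (0.452% higher and 0.329% lower), among them 2 members, both lower: Dbx1 (log2 change −5.75 ± 0.67, adjusted p 8.35e-05) and Dbx2 (−2.72 ± 0.48, adjusted p 0.00491). Irx3 measured 82.6 CPM against 177 and 111 CPM and did not pass (−0.77 ± 0.32, adjusted p 0.462). Nkx6-1 measured 7.09 CPM against 5.12 and 8.37 CPM, and Sp8 28.6 CPM against 35.3 and 37.5 CPM. Epiblast markers (4 of 5 measured in both tables) summed to 134 CPM in this class of the non-elongated library against 58.1 and 82.9 CPM, caudal progenitor markers (T, Nkx1-2, Cdx2, Fgf17, Wnt3a) to 207 CPM against 78.6 and 44.4 CPM, surface epithelium markers to 252 CPM against 35.3 and 47.7 CPM, and neural progenitor markers to 194 CPM against 422 and 435 CPM. All measured genes of these lists had UMIs in each of the 3 libraries. The part of these differences in the Dbx result was not tested. This fit on 1 class was chosen after the data had been seen.

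**Figure D2:**
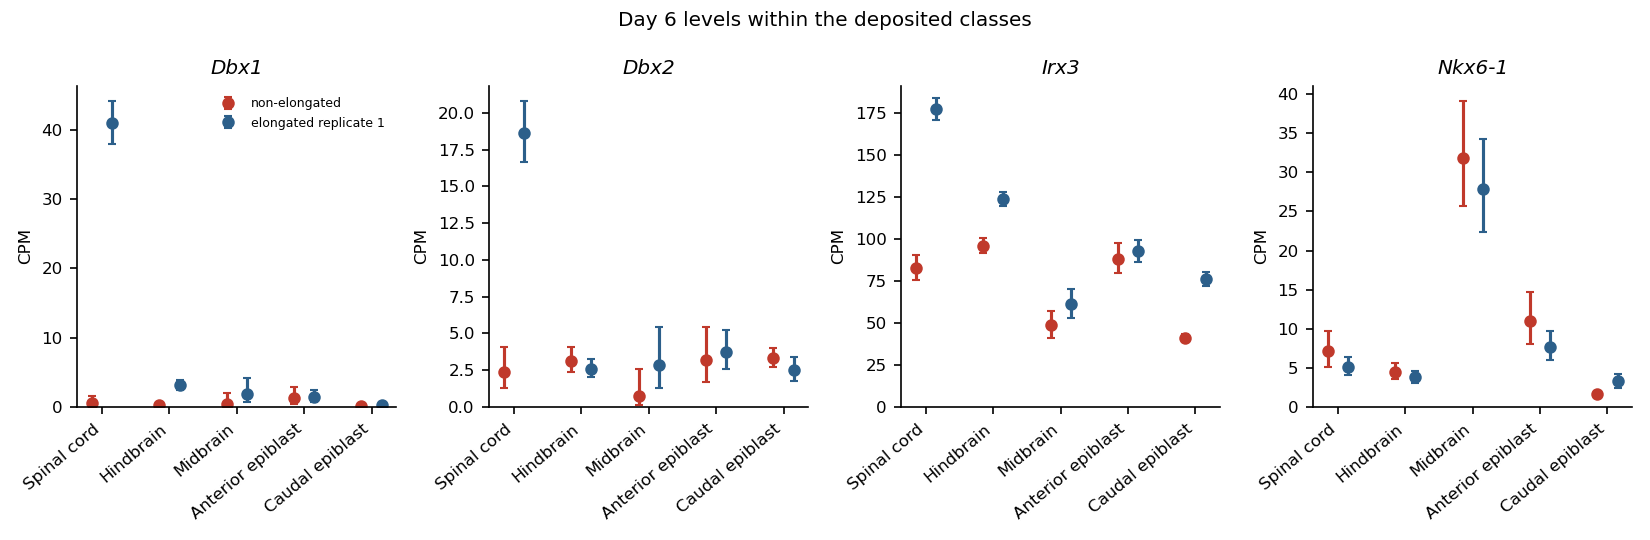
Levels of Dbx1, Dbx2, Irx3 and Nkx6-1 in CPM (linear axes) within 5 deposited classes of the day 6 table, for the non-elongated library (red, left) and elongated replicate 1 (blue, right); bars are exact Poisson 95% intervals for counting error. The Dbx genes differ most in the spinal cord class (0.546 against 41.0 CPM for Dbx1), and Nkx6-1 is highest in the midbrain class of both libraries.

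Other classes of the day 6 table gave the following levels. In the hindbrain class, Dbx1 measured 0.232 CPM (4 UMIs) in the non-elongated library against 3.08 CPM (82 UMIs) in elongated replicate 1, while Dbx2 measured 3.13 against 2.56 CPM. Irx3 measured 40.8 against 75.8 CPM in the caudal epiblast class and 88.2 against 92.5 CPM in the anterior epiblast class. Nkx6-1 was highest in the midbrain class of both libraries, at 31.9 CPM (25.7 to 39.2, exact Poisson 95% interval) in the non-elongated and 27.8 CPM (22.3 to 34.3) in the elongated one, and its intervals overlapped there. It was lower in the non-elongated library in the caudal epiblast class (1.57 against 3.22 CPM, ratio 0.487, 0.326 to 0.729) and in the surface ectoderm class (1.29 against 6.41 CPM, ratio 0.201, 0.0751 to 0.462). Nkx6-2 was highest instead in the anterior epiblast class, at 9.47 against 11.7 CPM. The paralogues were thus highest in different classes, in the same order in both libraries. Gsx1 was found mostly in the caudal epiblast class, at 0.930 CPM (32 of 38 UMIs of the library) against 0.884 CPM (14 of 16 UMIs). Differences between classes, and those in classes other than spinal cord in this paragraph, are given without a test of their own. A fit on the midbrain and hindbrain classes together called 0 of 15090 genes here (419 at an unadjusted p under 0.05).

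**Figure D3:**
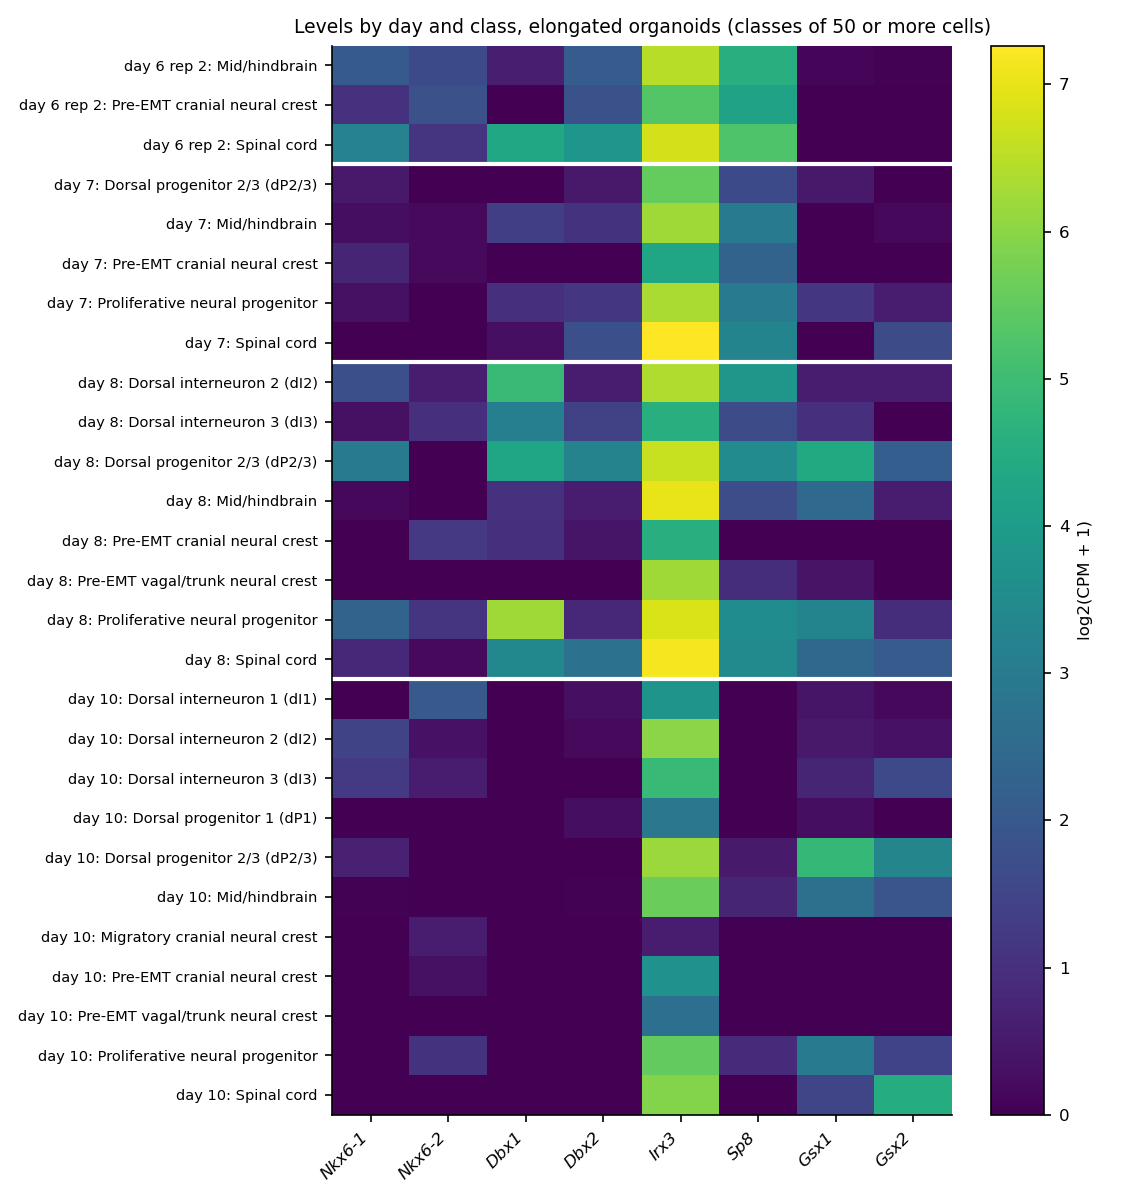
Levels of the 8 genes as log2(CPM + 1), by colour, in each class of 50 or more cells of elongated replicate 2 at day 6 and of days 7, 8 and 10; each row is a day and class, each column a gene. Dbx1 is brightest in the day 8 proliferative neural progenitor class (74.5 CPM), and Gsx1 and Gsx2 peak in different classes at day 10.

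The members differed by class at days 8 and 10. In the proliferative neural progenitor class at day 8, Dbx1 measured 74.5 CPM (67.3 to 82.3), with 394 UMIs in 24 of 159 cells, so 4.76% of the cells of the library held 43.9% of its Dbx1 UMIs. It measured 28.6 CPM in the dorsal interneuron 2 class, 18.7 CPM in dorsal progenitor 2/3, 9.39 CPM in spinal cord and 1.06 CPM in mid/hindbrain. Dbx2 had a different order there, with 8.59 CPM in dorsal progenitor 2/3, 5.63 CPM in spinal cord and 0.757 CPM in proliferative neural progenitor. Of these classes, only dorsal interneuron 2 and dorsal progenitor 2/3 have dorsal names, and Dbx genes are textbook marks of the middle of the axis. Sp8 at day 8 lay within a narrow range in 4 classes, at 13.4 CPM in dorsal interneuron 2, 10.6 CPM in proliferative neural progenitor, 10.2 CPM in dorsal progenitor 2/3 and 9.88 CPM in spinal cord. It measured 2.26 CPM in mid/hindbrain and had 0 UMIs in 76 cells of pre-EMT cranial neural crest. Irx3 at day 8 was highest in spinal cord (142 CPM) and mid/hindbrain (129 CPM). At day 10 Irx3 measured 70.5 CPM in dorsal progenitor 2/3 and 0.487 CPM (1 UMI) in migratory cranial neural crest, a cell type that has left the neural tube.

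Gsx1 and Gsx2 were highest in different classes at day 10. In the dorsal progenitor 2/3 class, Gsx1 measured 27.7 CPM (23.9 to 31.9) and Gsx2 8.96 CPM (6.87 to 11.5). In the spinal cord class, Gsx1 measured 1.87 CPM (0.935 to 3.35) and Gsx2 21.6 CPM (18.0 to 25.7). Dorsal progenitor 2/3 thus held more Gsx1 than Gsx2, and spinal cord the reverse. In mid/hindbrain they measured 5.37 and 2.76 CPM. At day 8, dorsal progenitor 2/3 held 20.2 CPM of Gsx1 and 3.46 CPM of Gsx2, and spinal cord held 4.47 CPM of Gsx1 and 3.26 CPM of Gsx2. Gsx1 and Gsx2 had 0 UMIs in each neural crest class at day 10, in 255, 105 and 56 cells. Thinned to 10000 UMIs per cell, Gsx1 was found in 70 of 391 dorsal progenitor 2/3 cells, 17.9% (14.2 to 22.1%, exact Clopper-Pearson), and Gsx2 in 38 of 227 spinal cord cells, 16.7% (12.1 to 22.2%), against 0 of 255 cells of pre-EMT cranial neural crest for both (upper limit 1.44%). The shares without thinning are 22.1% and 27.6%. Median depths before thinning were 16571, 23254 and 28865 UMIs. Intervals and floors cover counting error only.

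**Figure D4:**
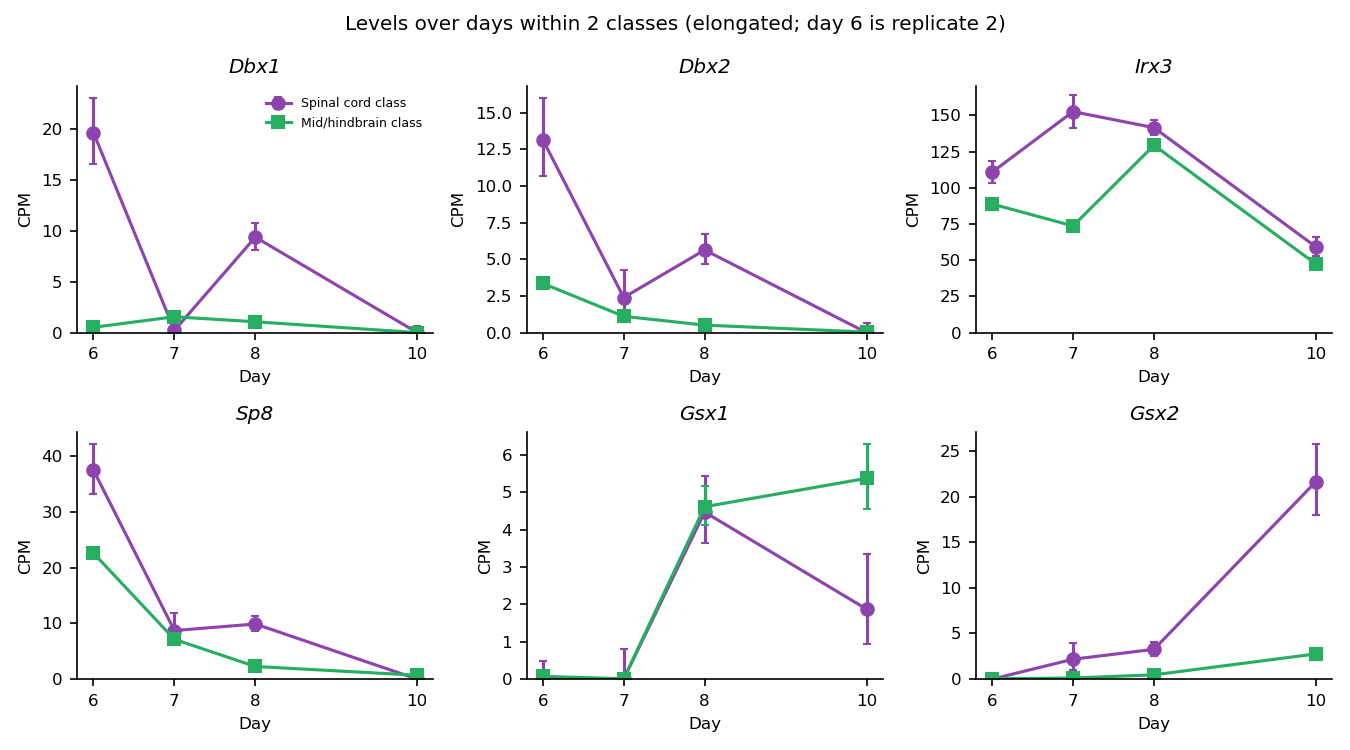
Levels of 6 genes in CPM (linear axes) at days 6, 7, 8 and 10 within the spinal cord class (purple circles) and the mid/hindbrain class (green squares) of elongated libraries, day 6 being replicate 2; bars are exact Poisson 95% intervals. In the spinal cord class Dbx1 and Dbx2 stand lower at day 7 (0.217 and 2.39 CPM) than at days 6 and 8, and Gsx2 reaches 21.6 CPM there at day 10.

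Dbx1 was followed over days in the spinal cord and mid/hindbrain classes, which are among those that every later library holds, and its order depended on the class. In the spinal cord class it measured 19.7 CPM at day 6 (replicate 2), 0.217 CPM at day 7 (1 UMI in 86 cells), 9.39 CPM at day 8 and 0 UMIs in 228 cells at day 10. In mid/hindbrain it measured 0.519, 1.55, 1.06 and 0 CPM on the same days. The day 7 spinal cord class was small, 3.35% of the cells of its library, against 20.3% at day 8. Dbx2 in the spinal cord class measured 13.2, 2.39, 5.63 and 0 CPM, and in mid/hindbrain 3.35, 1.11, 0.509 and 0.0344 CPM. Tested on spinal cord sums alone, 5 members passed at day 7, 1 higher and 4 lower, where 3.98% of 12176 genes passed (2.14% higher and 1.83% lower). At day 8, 6 members passed, 2 higher and 4 lower, where 14.5% of genes passed (7.38% higher and 7.08% lower). At day 10, 7 members passed, 2 higher and 5 lower, where 20.1% of genes passed (11.1% higher and 9.04% lower). Dbx1 fell there on each later day, with adjusted p 1.39e-05, 0.00725 and 5.16e-07, and so did Dbx2, with adjusted p 0.00135, 0.00861 and 8.84e-07. Irx3 passed there at day 10 alone (log2 change −1.41 ± 0.33, adjusted p 0.00478). Nkx6-2 was not called on any day within this class, where it had 16 and 9 UMIs in the day 6 replicates.

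The low sums of some members came from few cells. At day 8, 898 Dbx1 UMIs lay in 122 of 3337 cells, up to 39 in a cell, and the top 1% of cells held 62.9% of them. In elongated replicate 1 at day 6, 813 UMIs lay in 257 of 2076 cells, and the top 1% held 26.8%. Nkx6-1 at day 8 had 119 UMIs in 27 cells, up to 20 in a cell, whereas its 430 UMIs in elongated replicate 1 lay in 283 cells, up to 11 in a cell. Nkx6-1 at day 8 was thus in few cells with many UMIs each, and in elongated replicate 1 in many cells with few. Dbx1 was no more spread in elongated replicate 2 than at day 8: 221 UMIs lay in 77 of 2402 cells, up to 23 in a cell, and the top 1% held 71.0%. For Dbx2, 40 of 93 cells at day 8 carried 3 or more UMIs, against 36 of 407 cells in elongated replicate 2. Depth per cell differs between these libraries (medians 31471 UMIs at day 8, and 34854 and 59014 in the day 6 replicates).

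Which members shared cells was then counted, beside the number expected if the genes of a pair were found independently among the cells of a class. Dbx1 and Dbx2 were found together in 59 cells at day 8, where 5.58 were expected, and in 91 cells of elongated replicate 1, where 72.0 were expected. By class at day 8, the pair shared 32 spinal cord cells (2.55 expected) and 18 dorsal progenitor 2/3 cells (2.03 expected). It shared 2 proliferative neural progenitor cells (0.604 expected), where Dbx1 was in 24 cells and Dbx2 in 4. Thinning every cell to 10000 UMIs left 29 shared cells at day 8, where 2.60 were expected, and 29 in elongated replicate 1, where 21.4 were expected. Dbx1 and Gsx1, in contrast, shared 3 cells at day 8 of 13.2 expected, although each was found in the same classes. All 3 lay in mid/hindbrain (1.91 expected). None lay in dorsal progenitor 2/3 (4.14 expected), spinal cord (3.98 expected) or proliferative neural progenitor cells (3.02 expected). Gsx1 and Gsx2 shared 5 cells at day 8 of 11.5 expected and 9 at day 10 of 10.8 expected. The day 10 total joined classes that differed. Spinal cord held 6 shared cells (2.49 expected) and proliferative neural progenitor 1 (0.57 expected). Dorsal progenitor 2/3 held 1 (5.30 expected) and mid/hindbrain 1 (2.38 expected). Nkx6-1 and Dbx1 shared 0 cells at day 8 of 2.45 expected, and 32 in elongated replicate 1, of 30.0 expected. Cells that share UMIs could be doublets, and no doublet treatment by the authors is given in the sources used here.

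**Figure D5:**
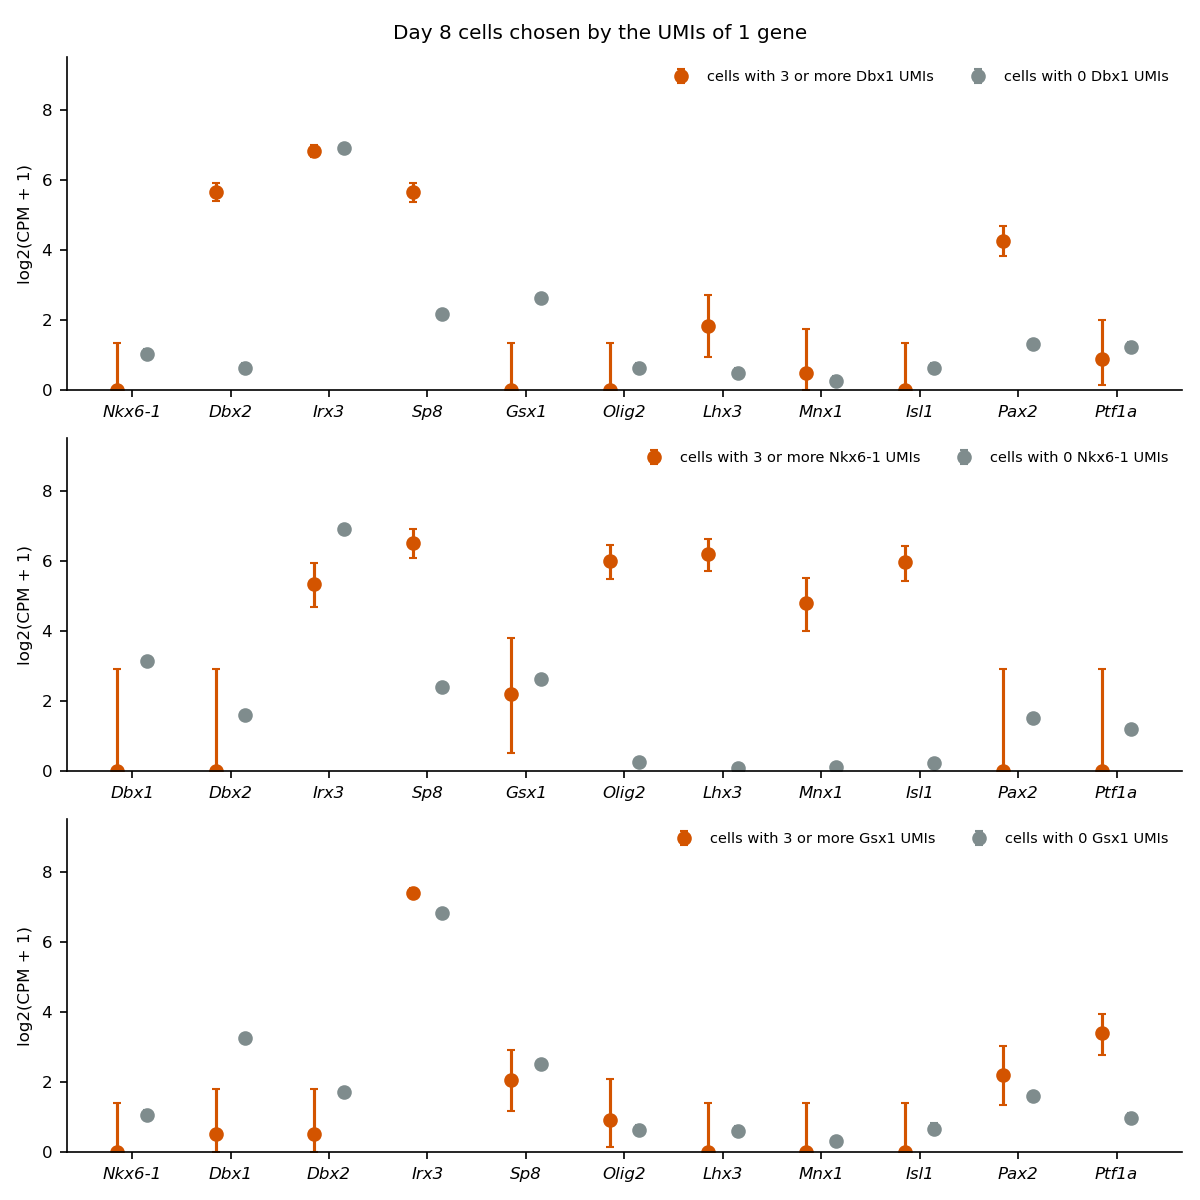
Levels as log2(CPM + 1) summed over day 8 cells with 3 or more UMIs of 1 gene (orange, left) and over cells with 0 UMIs of it (grey, right), for Dbx1 (top, 81 cells), Nkx6-1 (middle, 15 cells) and Gsx1 (bottom, 61 cells); bars are exact Poisson 95% intervals for counting error. Dbx2, Sp8 and Pax2 stand high in the Dbx1 cells, and Olig2, Lhx3, Mnx1 and Isl1 in the Nkx6-1 cells.

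The day 8 cells with at least 3 UMIs of a member differed in the other members. This choice of cells, and of the genes named beside them, was made after values had been seen, so the values are a description. In 81 cells with 3 or more Dbx1 UMIs, Dbx2 measured 49.4 CPM (40.9 to 59.3), against 0.553 CPM in 3215 cells without Dbx1. Sp8 measured 49.0 CPM against 3.56 CPM, and Pax2, a factor of several inhibitory interneuron types, 18.2 CPM against 1.48 CPM. Nkx6-1 and Gsx1 had 0 UMIs in the Dbx1 cells, against 1.06 and 5.24 CPM, and Irx3 measured 112 CPM against 119 CPM. For the genes at 0 UMIs, the upper 95% limit is 1.56 CPM. They were not deeper than the others, with a median of 23252 UMIs against 31734. By class, 26 were called spinal cord, 23 proliferative neural progenitor and 18 dorsal progenitor 2/3. In elongated replicate 1 at day 6, 95 of 105 such cells were called spinal cord, with Dbx2 at 25.1 CPM against 4.52 CPM, Pax6 at 203 CPM against 27.5 CPM, and Nkx6-1 present at 3.99 CPM against 5.57 CPM.

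The 15 day 8 cells with 3 or more Nkx6-1 UMIs carried genes of motor neurons and their progenitors. Olig2, which directs motor neuron progenitors, measured 62.8 CPM (35 UMIs), against 0.209 CPM (24 UMIs) in 3310 cells without Nkx6-1. Lhx3 and Mnx1, factors of newborn motor neurons, measured 71.7 CPM (40 UMIs) and 26.9 CPM (15 UMIs) against 0.0784 CPM (9 UMIs) and 0.0871 CPM (10 UMIs). Isl1 measured 61.0 CPM against 0.183 CPM, Neurog2 87.9 CPM against 3.47 CPM, and Sp8 89.7 CPM against 4.34 CPM. Dbx1 and Dbx2 had 0 UMIs in these cells, against 7.82 and 2.05 CPM, and Irx3 measured 39.5 CPM against 119 CPM. Pax7, a dorsal factor, measured 5.38 CPM (3 UMIs) against 33.7 CPM. By class, 5 of the 15 cells were called dorsal progenitor 2/3 and 4 dorsal interneuron 1. The motor neuron genes were summed over all 15 cells and not split by class. The 34 cells of the dorsal interneuron 1 class at day 8 measured 27 CPM of Nkx6-1 (22 UMIs in 5 cells) and 13.5 CPM of Nkx6-2. At day 10, with 435 cells, the same class had 0 UMIs of Nkx6-1 and 3.08 CPM of Nkx6-2, in 23 cells.

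The Gsx cells were higher in Ptf1a, which directs inhibitory dorsal neurons. In 61 day 8 cells with 3 or more Gsx1 UMIs, Ptf1a measured 9.49 CPM (5.88 to 14.5) against 0.960 CPM in 3003 cells without Gsx1. At day 10, the 37 such cells measured 80.3 CPM of Ptf1a against 3.39 CPM. The 35 day 10 cells with 3 or more Gsx2 UMIs measured 18.5 CPM of Ptf1a against 5.58 CPM. The other Gsx gene was at low counts in each of the day 10 sets. Gsx2 had 1 UMI in the Gsx1 cells (1.08 CPM, 0.0275 to 6.04, against 3.29 CPM). Gsx1 had 3 UMIs in the Gsx2 cells (2.78 CPM, 0.573 to 8.11, against 4.51 CPM). These intervals include the levels in cells without the chosen gene. Irx3 differed between the day 10 sets, at 112 CPM in Gsx1 cells against 33.4 CPM in cells without Gsx1. It measured 37.0 CPM in Gsx2 cells against 37.2 CPM in cells without Gsx2.

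Genes of neighbouring bands and of the signals upstream were read from lists chosen with earlier results known. Among genes of the Gsx bands and of the neurons made there, Lbx1, Neurog1, Neurog2, Ptf1a and Tlx3 were higher at day 8 and at day 10. Of these, Tlx3, a factor of excitatory dorsal neurons, measured 34.0 CPM at day 10 and Lbx1 13.0 CPM, against 0.438 and 0.531 CPM and 0.342 and 0.064 CPM at day 6. Lower at day 8 were Pax2 (1.86 CPM against 9.57 and 8.14 CPM) and Pax8, which are also genes of the border between midbrain and hindbrain. Of 6 measured genes of the floor plate and ventral bands, 2 were lower at day 8, Foxa2 and Nkx2-9, where 6.64% of all genes were lower. Both had 0 UMIs, against 0.589 and 0.149 CPM of Foxa2 and 0.164 and 0.219 CPM of Nkx2-9 at day 6. At day 10 the same 2 were lower, and Olig1 was higher. Of the hedgehog pathway genes, Gli1, a direct target of the pathway, was lower at day 8 and day 10 (0.050 CPM on each day, against 0.835 and 0.913 CPM at day 6). Gas1 was higher on both days, and Cdon at days 7 and 10. The median log2 change over the hedgehog list was 0.56 at day 8 and −0.15 at day 10, so Gli1 does not stand for the list. Of all genes, 6.74% were higher and 6.64% lower at day 8, and 14.1% and 12.3% at day 10. Of 8 class I and dorsal factors, 4 were higher at day 8 (Irx5, Pax3, Pax6 and Pax7) and none lower, with a list median log2 change of 1.58, where 6.74% of all genes were higher. At day 10, 2 of the 8 were higher (Msx2 and Pax3) and none lower. In the non-elongated library, no gene of these lists was called, where 0% of 16379 genes passed.

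Genes with the pattern most like each member were found over 27 units of day and class, by Pearson correlation of log2(CPM + 1) among 12253 genes. The units share libraries and depth, so these values are a description. Irx3 was most like Irx5, its neighbour in the same Iroquois gene cluster (r = 0.92), followed by Crnde (0.84) and Itpa (0.84). Gsx2 was most like Ptf1a (0.83), Lgr5 (0.77) and Wnt7b (0.76), whereas Gsx1 was most like Cdc42se2 (0.81), Rai14 (0.80) and Ankrd11 (0.79). Dbx2 and Sp8 shared Ntn1, the axon guidance cue netrin-1, as their closest gene (0.82 and 0.85), and were themselves alike (0.81). Nkx6-1 and Dbx1 were each other's closest gene, but at a lower value (0.69). That likeness is between class sums, and at day 8 Nkx6-1 and Dbx1 shared 0 cells, of 2.45 expected. Nkx6-2 reached 5 CPM in none of the units and was not ranked.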

How the data were processed

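Cells of 6 libraries were used as deposited. The deposited matrices hold the raw UMI count of every gene in every cell, which the authors made with Cell Ranger 3.1 and the mouse build mm10 per the submitters' processing notes. The deposited metadata give each cell's class, its UMI and gene counts, and its mitochondrial percent. UMI sums matched the metadata in all 16282 cells. How cells were filtered, doublets handled and classes named is not given in the sources used here. The day 6 libraries of the first table were read as non-elongated and elongated from the initials of their names.

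UMIs were summed per library over the 17296 symbols in both tables and tested with edgeR 4.0.16 (quasi-likelihood, TMM, minimum count 10, 5 group means, 1 residual degree of freedom, Benjamini-Hochberg threshold 0.05) in R 4.3.3. The slope fit had 3 residual degrees of freedom. Library levels are TMM-scaled CPM, and class levels are plain CPM. SEs are the log2 change divided by the root of F. The p-values measure the spread between the day 6 duplicates, which may be technical. The scripts were tested on simulated counts. Intervals are exact (Poisson or Clopper-Pearson, 95%) and cover counting error only. The named genes are the 8 members, called genes of the lists, and the 3 genes most like each member. Members and lists were chosen with earlier results of these data known. The fits on single classes, and the cells chosen by UMIs of a member, were added after seeing the data. Alternatives were RLE scaling, library totals, no filter, DESeq2 1.42.0, class subsets and leaving out each duplicate. Some genes of the lists are not reported here, and no count is given for the lists that hold them.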

Additional observations from a re-analysis of the deposited data

Results flagged for a closer look

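For 4 pairs of values, a gene moved one way between days in the mid/hindbrain class and the other way in the spinal cord class of elongated organoids, each from 1 library a day. The CPM of Dbx1 at day 7 was 2.99 times that of day 6 replicate 2 in mid/hindbrain (2.26 to 4, 95% interval for counting error), and 0.0111 times in spinal cord (0.000278 to 0.0626). At day 8 it was 0.684 times that of day 7 in mid/hindbrain (0.511 to 0.907), and 43.2 times in spinal cord (7.66 to 1713). For Dbx2, day 8 over day 7 was 0.459 in mid/hindbrain (0.304 to 0.676) and 2.35 in spinal cord (1.27 to 4.84). For Irx3, day 7 over day 6 replicate 2 was 0.829 in mid/hindbrain (0.806 to 0.853) and 1.38 in spinal cord (1.24 to 1.52). In each case the difference was not tested. The day 7 spinal cord class has 86 cells and 1 Dbx1 UMI, so both spinal cord ratios of Dbx1 rest on that UMI.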

How the results depend on the processing

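No paired analysis was possible because only elongated day 6 has more than 1 library. All 16 calls of members against day 6 kept their sign when set against either duplicate alone, as differences of log2 CPM without a new fit. Every called level lay outside both duplicates, so this result was fixed in advance and adds no support. For non-elongated organoids, 21 genes (0.128%) were called with RLE scaling, 127 (0.775%) with DESeq2 (1 member) and 95 (0.78%) in the spinal cord class (2 members), against 0. At day 7, 395 genes were called in neural progenitor classes and 374 in midbrain and hindbrain classes, against 654. Members called numbered 5 in spinal cord (3.98% of all genes passed), against 3 (3.99%). At day 8, midbrain and hindbrain classes gave 1405, against 2192. At day 10, the progenitor, spinal cord, and midbrain and hindbrain subsets gave 2698, 2451 and 2207, against 4320. The slope called 6008 genes with DESeq2 (38.1%, 6 members), against 3749 (23.8%, 3 members). It called 1479 in spinal cord (12.8%) and 2042 in midbrain and hindbrain classes (13.8%, 5 members). Without day 6 replicates 1 or 2 in turn, its counts ranged from 0 to 1723 genes (0% to 11.1%) and 0 to 2 members, the lower without replicate 2. Signs turned for Nkx6-1 in non-elongated organoids (−0.0087 with library totals, −0.0040 with no filter), for Dbx1 at day 8 (−0.32 in progenitor classes, −1.78 in spinal cord, −0.78 in midbrain and hindbrain classes, against 0.26), and for Irx3 in spinal cord (0.014 at day 7, −0.10 at day 8). The cause was not tested. Library totals alone moved the median log2 change of all genes to 0.24 at day 10. The library with the highest share of cells stayed the same without thinning for 4 of 8 members. Depth limits Gsx2 at day 6, Nkx6-2 within classes, and all values that rest on under 10 UMIs.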
